A study of Mus musculus with 4 samples.

Results

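The MAP kinase phosphatases examined here are 10 dual-specificity phosphatase (DUSP) genes, Dusp1, Dusp2, Dusp4, Dusp5, Dusp6, Dusp7, Dusp8, Dusp10, Dusp14 and Dusp16, chosen by symbol from the 54532 genes of the deposited tables. All 10 were found once each and all are annotated as protein-coding. MAP kinases (ERK, JNK and p38) are switched on when a kinase phosphorylates a threonine and a tyrosine in their activation loop, and DUSP enzymes remove both phosphates. Many DUSP genes are themselves transcribed in response to MAP kinase activity, so that the pathway makes its own brake. In macrophages exposed to lipopolysaccharide (LPS, the endotoxin of Gram-negative bacteria, which TLR4 detects), Dusp1 is known for an early and transient rise that limits p38 and JNK signalling and cytokine output.

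The study sequenced polyadenylated RNA from RAW 264.7 cells, a mouse macrophage line, in 4 libraries with 1 library per group. The groups were Hnrnpul1-/- cells given LPS at 100 ng/ml for 10 h, wild-type cells given the same LPS treatment, untreated Hnrnpul1-/- cells and untreated wild-type cells. Hnrnpul1 belongs to the hnRNP U-like proteins, which bind RNA. The sources used here do not say how the Hnrnpul1-/- line was made or whether it is 1 clone, so a difference between genotypes is a difference between 2 cell lines as well.

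Total counts ranged from 17045432 to 17909549 per library. Hnrnpul1 reads were left at 10.7% of the wild-type level under LPS and at 8.62% untreated. Tnf stood at 1355 CPM in LPS-treated Hnrnpul1-/- cells and 1182 CPM in LPS-treated wild-type cells, against 77.8 and 74.2 CPM in the untreated cells of these genotypes. All 8 macrophage markers passed the filter on low counts, and none of the T cell, NK cell, neutrophil, fibroblast or epithelial markers did, with summed levels of at most 0.621 CPM per list. Of 3 dendritic cell markers 1 passed, with summed levels of 0.632 to 3.39 CPM over the libraries, and of 3 endothelial markers 1 passed, with 3.05 to 8.58 CPM. The part of these transcripts in the results was not tested.

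Levels are CPM (read counts scaled to library size with TMM factors). Differences are log2 ratios with 95% exact intervals that cover counting error only. With 1 library per group no difference has a replicate check and no p-value comes from a pair of libraries. A call, higher or lower, needed a difference of 2-fold or more and an interval that did not hold 0 on the log2 scale. The filter, a mean CPM of at least 1 over the 4 libraries, left 11640 genes. For this and other cutoffs on mean CPM, counts were scaled to total counts without TMM factors. The filter left 9 of the 10 phosphatases. Dusp10 fell under it and is given by its reads. In bulk RNA, fewer cells with a transcript and less of it per cell cannot be told apart.

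The RefSeq promoter windows (GRCm38.p6) run from 250 bases before to 50 bases after the start that RefSeq annotates. Those of Dusp8, Dusp10 and Dusp14 lie inside the deposited gene spans, so their starts are internal to the genes as counted. To show what the regulatory sequence of these genes holds, the windows were searched on both strands. They were searched for the CRE (TGACGTCA), the AP-1 element (TGANTCA), the NF-kB consensus, the CArG box bound by serum response factor, TATAAA and the GC box (GGGCGG). A window was present for 9 of the 10 genes, all but Dusp4. The windows of 4 genes on which the results turn are shown 5′ to 3′, with CRE and CArG matches in capitals. Dusp5 lies at chr19:53528895-53529194 (plus strand), Dusp8 at chr7:142095235-142095534 (minus strand), Dusp1 at chr17:26508423-26508722 (minus strand) and Dusp2 at chr2:127335909-127336208 (plus strand).
Dusp5 promoter: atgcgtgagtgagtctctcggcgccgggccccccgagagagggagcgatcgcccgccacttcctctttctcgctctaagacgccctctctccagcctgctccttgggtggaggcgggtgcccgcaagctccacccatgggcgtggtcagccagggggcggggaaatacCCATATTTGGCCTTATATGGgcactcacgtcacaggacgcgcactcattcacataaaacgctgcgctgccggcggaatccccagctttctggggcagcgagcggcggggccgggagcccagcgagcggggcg
Dusp8 promoter: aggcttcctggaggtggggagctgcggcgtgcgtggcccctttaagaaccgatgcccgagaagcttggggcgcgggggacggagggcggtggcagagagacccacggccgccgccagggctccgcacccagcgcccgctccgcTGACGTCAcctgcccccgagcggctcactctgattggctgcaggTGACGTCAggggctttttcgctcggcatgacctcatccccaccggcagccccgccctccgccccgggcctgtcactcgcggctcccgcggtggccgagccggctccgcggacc
Dusp1 promoter: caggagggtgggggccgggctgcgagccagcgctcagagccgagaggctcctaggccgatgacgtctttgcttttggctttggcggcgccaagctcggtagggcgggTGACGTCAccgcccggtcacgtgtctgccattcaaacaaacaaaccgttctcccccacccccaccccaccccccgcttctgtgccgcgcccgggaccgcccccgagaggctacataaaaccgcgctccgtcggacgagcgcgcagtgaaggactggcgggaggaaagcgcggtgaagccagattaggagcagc
Dusp2 promoter: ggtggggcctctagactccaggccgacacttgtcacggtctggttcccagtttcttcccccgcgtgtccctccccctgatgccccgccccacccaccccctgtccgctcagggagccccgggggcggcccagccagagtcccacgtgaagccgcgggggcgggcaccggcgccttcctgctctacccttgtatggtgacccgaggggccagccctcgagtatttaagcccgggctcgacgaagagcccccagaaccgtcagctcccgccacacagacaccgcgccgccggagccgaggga

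Dusp5 held 2 CArG boxes, at 82 to 73 and 72 to 63 bases upstream of its start, side by side without a gap. CArG boxes were found in 1.63% of 32851 windows of this length. Dusp8 held 2 CRE matches, at 107 to 100 and 63 to 56 bases upstream of its RefSeq start, and thus inside the deposited gene span. Dusp1 held 1, at 143 to 136 bases upstream. CRE matches were found in 1.79% of windows. The Dusp2 window held none of the capitalised motifs and 3 GC boxes, an element present in 35.7% of windows. GC boxes overlapped no other motif in the 4 windows shown. None of the 9 windows matched the NF-kB consensus (4.51% of windows), the AP-1 element (7.81%) or TATAAA (13.6%). Such a match is a description of letters and not a binding site, and no match says only that the letters are not in the window.

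The 3′ untranslated regions (UTRs) were searched for AU-rich elements, sequences through which RNA-binding proteins such as tristetraprolin and HuR set the lifetime of inflammatory transcripts. The pentamer ATTTA and the longer TATTTAT were counted in the longest protein-coding transcript of each gene in GENCODE M21 (GRCm38). The longer element was present in 3 of the 10 genes, Dusp1 (3 copies), Dusp2 (1 copy) and Dusp8 (2 copies), and in 31.0% of 9892 tested genes with a 3′ UTR of at least 100 bases. The 6 sites are shown with their flanks, the element in capitals.
Dusp1 3′ UTR, chr17:26506163-26506183, minus strand: tggtcctTATTTATttaacac
Dusp1 3′ UTR, chr17:26505874-26505894, minus strand: ttaccttTATTTATttttgtg
Dusp1 3′ UTR, chr17:26505678-26505698, minus strand: gtttgttTATTTATgatctga
Dusp2 3′ UTR, chr2:127338308-127338328, plus strand: cactttaTATTTATatagaac
Dusp8 3′ UTR, chr7:142081719-142081739, minus strand: gatttttTATTTATttaagct
Dusp8 3′ UTR, chr7:142080146-142080166, minus strand: gtttaagTATTTATtattatt

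ATTTA was densest in Dusp2, with 6.89 copies per kb, and in Dusp1, with 5.80 copies per kb. The median of the tested genes was 1.38 per kb, and 97.4% and 95.7% of them had a lower density than Dusp2 and Dusp1. Dusp10, Dusp8, Dusp4, Dusp16, Dusp5 and Dusp6, in that order, had between 2.70 and 0.841 copies per kb, and Dusp7 and Dusp14 had 0.

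With LPS, 5 of the 9 tested phosphatases were called higher in each genotype, Dusp2, Dusp4, Dusp5, Dusp8 and Dusp16, and none was called lower. Dusp5 had the highest ratio among them in both genotypes, although in Hnrnpul1-/- cells the Dusp8 interval (2.73 to 4.58) held the Dusp5 value (4.21). Of all tested genes, 11.6% were called higher and 12.0% lower with LPS in Hnrnpul1-/- cells, and 11.2% and 10.1% in wild-type cells. The median log2 ratio of the 9 phosphatases was 1.85 in Hnrnpul1-/- cells and 1.64 in wild-type cells, beside -0.02 and -0.004 over all tested genes.

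**Figure D1:**
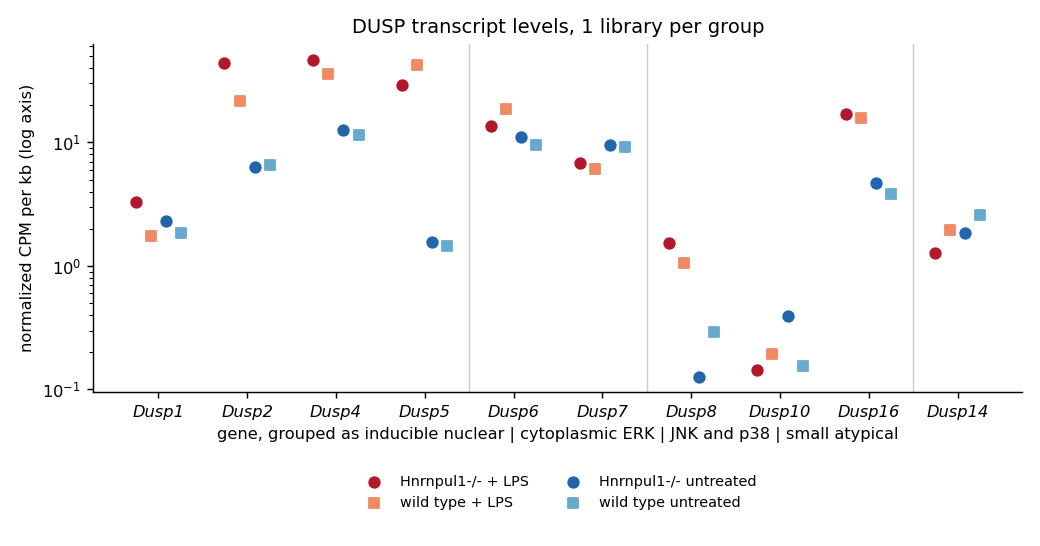
Transcript levels of the 10 DUSP genes as normalized CPM per kb of the length deposited for each gene (log axis), 1 point per library. The order is LPS-treated Hnrnpul1-/-, LPS-treated wild type, untreated Hnrnpul1-/- and untreated wild type. The red and orange LPS points lie above the blue untreated points for Dusp2, Dusp4, Dusp5, Dusp6, Dusp8 and Dusp16, and below them for Dusp7.

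Among the inducible nuclear phosphatases, Dusp5, which acts on ERK, changed most. Dusp5 (ENSMUSG00000034765, chromosome 19, 53529109 to 53542431, plus strand, GRCm38) was at 71.8 CPM in LPS-treated Hnrnpul1-/- cells and 104 CPM in LPS-treated wild-type cells, against 3.87 CPM in untreated Hnrnpul1-/- cells and 3.58 CPM in untreated wild-type cells. Both LPS-treated libraries were thus far above both untreated ones, on 1156 and 1595 reads against 75 and 68. The log2 ratio for LPS was 4.21 (3.87 to 4.57) in Hnrnpul1-/- cells, an 18.5-fold difference, and 4.86 (4.51 to 5.23) in wild-type cells, a 29.0-fold difference. In the order of all 11640 genes by LPS ratio, Dusp5 stood at place 192 in Hnrnpul1-/- cells and 144 in wild-type cells. Its window held the paired CArG boxes shown above, and a link between motif and LPS ratio was not tested. Dusp2 and Dusp16 were called higher without a CArG or CRE match in their windows. Dusp8, with 2 CRE matches, was called higher in both genotypes, and Dusp1, with 1 CRE match, was not called.

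Dusp2, another nuclear phosphatase of hematopoietic cells, was called higher with LPS in both genotypes and more so in Hnrnpul1-/- cells. Dusp2 (ENSMUSG00000027368, chromosome 2, 127336159 to 127338376, plus strand) was at 87.3 CPM in LPS-treated Hnrnpul1-/- cells and 43.0 CPM in LPS-treated wild-type cells, against 12.6 and 13.2 CPM in untreated Hnrnpul1-/- and wild-type cells. The untreated libraries lay close together and the LPS-treated ones apart, with 1405 and 660 reads. Its LPS log2 ratio was 2.79 (2.60 to 2.99) in Hnrnpul1-/- cells and 1.71 (1.495 to 1.92) in wild-type cells.

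Dusp4, a nuclear phosphatase of ERK and JNK, was called higher in both genotypes. Dusp4 (chromosome 8, 34807297 to 34819894, plus strand) was at 128 CPM in LPS-treated Hnrnpul1-/- cells and 98.4 CPM in LPS-treated wild-type cells, against 34.5 and 31.6 CPM untreated. The log2 ratio for LPS was 1.89 (1.76 to 2.02) in Hnrnpul1-/- cells and 1.64 (1.4999 to 1.78) in wild-type cells.

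Dusp1, the nuclear phosphatase of p38 and JNK and the best studied of the family in macrophages, stood low in every library at this time point. Dusp1 (ENSMUSG00000024190, chromosome 17, 26505590 to 26508519, minus strand) had 8.88 CPM in LPS-treated Hnrnpul1-/- cells and 4.75 CPM in LPS-treated wild-type cells, against 6.25 CPM in untreated Hnrnpul1-/- cells and 5.00 CPM in untreated wild-type cells. The LPS-treated Hnrnpul1-/- library was the highest, on 143 reads against 73 in the LPS-treated wild-type library, and the other libraries lay close together. The LPS log2 ratio was 0.51 (0.15 to 0.87) in Hnrnpul1-/- cells and -0.07 (-0.53 to 0.38) in wild-type cells, so Dusp1 was not called in either.

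The cytoplasmic ERK phosphatases Dusp6 and Dusp7 were not called with LPS and lay on opposite sides of no change. Dusp6 (chromosome 10, 99263231 to 99267489, plus strand) was at 42.2 CPM in LPS-treated Hnrnpul1-/- cells and 58.6 CPM in LPS-treated wild-type cells, against 34.4 and 30.1 CPM untreated. The wild-type difference of 0.96 (0.81 to 1.11) was just under the size rule, and the Hnrnpul1-/- difference was 0.29 (0.14 to 0.45). Dusp7 (chromosome 9, 106368632 to 106375724, plus strand) was at 23.0 and 20.4 CPM in LPS-treated Hnrnpul1-/- and wild-type cells, against 32.2 and 30.8 CPM untreated. Its log2 ratios were -0.49 (-0.67 to -0.30) and -0.60 (-0.80 to -0.40). Scaling by total counts, which moved the median of all genes to -0.33 in Hnrnpul1-/- cells and -0.30 in wild-type cells, put Dusp6 at -0.019 in Hnrnpul1-/- cells and 0.66 in wild-type cells, and Dusp7 at -0.80 and -0.89.

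Of the phosphatases that prefer JNK and p38, Dusp16 had the most reads of the 10 genes in both LPS-treated libraries, and Dusp8 and Dusp10 were rare. The annotated length of Dusp16, 7798 bases, is also the largest of the 10. Per kb it stood at place 4 in LPS-treated Hnrnpul1-/- cells and place 5 in LPS-treated wild-type cells. Dusp16 (chromosome 6, 134715468 to 134792625, minus strand) was at 131 CPM in LPS-treated Hnrnpul1-/- cells and 122 CPM in LPS-treated wild-type cells, against 36.3 and 29.9 CPM untreated. Its LPS log2 ratio was 1.85 (1.73 to 1.98) in Hnrnpul1-/- cells and 2.03 (1.90 to 2.17) in wild-type cells, called in both.

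Dusp8 (ENSMUSG00000037887, chromosome 7, 142079490 to 142095843, minus strand) was rare but rose in both genotypes. It had 120 reads in LPS-treated Hnrnpul1-/- cells and 79 in LPS-treated wild-type cells, against 12 and 27 reads untreated, or 7.45 and 5.15 CPM against 0.620 and 1.42 CPM. The LPS log2 ratio was 3.59 (2.73 to 4.58) in Hnrnpul1-/- cells and 1.86 (1.21 to 2.54) in wild-type cells. Dusp10, also a JNK and p38 phosphatase, had 7 and 9 reads in LPS-treated Hnrnpul1-/- and wild-type cells, against 23 and 9 reads untreated. Its LPS log2 ratio was -1.45 (-2.91 to -0.18) in Hnrnpul1-/- cells and 0.31 (-1.20 to 1.81) in wild-type cells, where no difference was detectable at this depth.

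Dusp14, a small enzyme without the MAP kinase-binding domain of the others, did not pass the rule. It stood at 2.48 and 3.78 CPM in LPS-treated Hnrnpul1-/- and wild-type cells, against 3.56 and 5.05 CPM untreated, with LPS log2 ratios of -0.52 (-1.12 to 0.06) and -0.42 (-0.92 to 0.07).

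**Figure D2:**
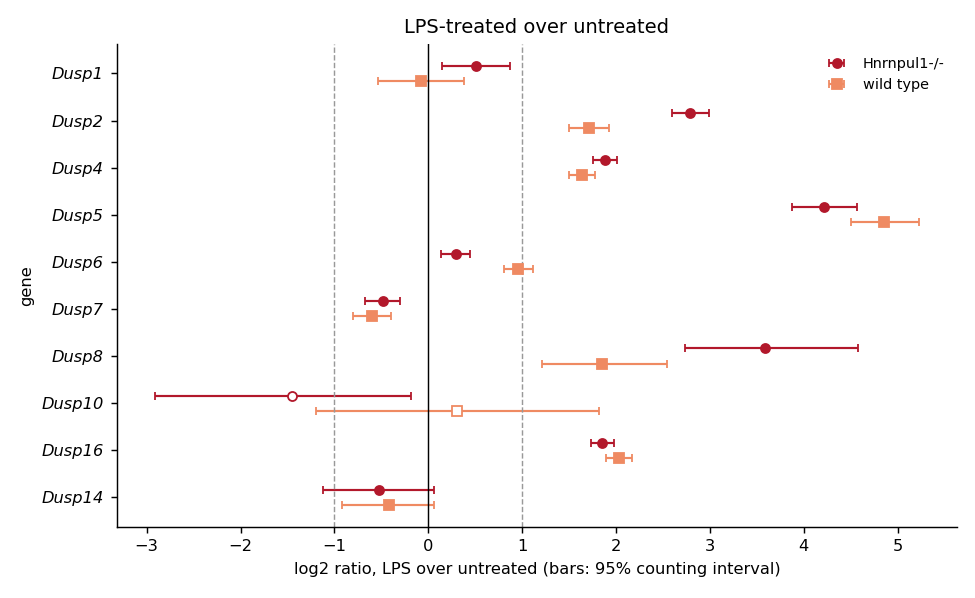
Log2 ratios of LPS-treated over untreated cells for each DUSP gene, circles for Hnrnpul1-/- and squares for wild type, with 95% counting intervals; dashed lines mark 2-fold and open symbols the untested Dusp10. Dusp5 lies farthest right in both genotypes (4.21 and 4.86), and Dusp2 and Dusp8 lie farther right in Hnrnpul1-/- cells.

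Per kb of the length deposited for each gene, LPS changed which phosphatase transcripts made up the family. The order between genes depends on these lengths, and the lengths of the expressed transcripts were not measured. The summed level of the 10 genes was 163 CPM per kb in LPS-treated Hnrnpul1-/- cells and 145 in LPS-treated wild-type cells, against 50.4 in untreated Hnrnpul1-/- cells and 47.1 in untreated wild-type cells. Untreated, the order began with Dusp4, Dusp6 and Dusp7 in both genotypes, which held 25.0%, 21.8% and 19.0% of the sum in Hnrnpul1-/- cells and 24.5%, 20.4% and 19.5% in wild-type cells. Dusp6 and Dusp7 did not differ beyond counting error in untreated wild-type cells.

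Under LPS the order differed between genotypes. In Hnrnpul1-/- cells Dusp4 (28.7% of the sum) and Dusp2 (26.8%) led and did not differ beyond counting error, and Dusp5 came after them with 17.9%. In wild-type cells Dusp5 led with 29.0%, ahead of Dusp4 with 24.8% and Dusp2 with 14.8%, each step beyond counting error. Dusp7 held 4.21% and 4.195% of the sum in LPS-treated Hnrnpul1-/- and wild-type cells. Dusp1, Dusp8, Dusp10 and Dusp14 each held 2.03% or less in the LPS-treated Hnrnpul1-/- library and 1.34% or less in the LPS-treated wild-type library.

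Between genotypes under LPS, Dusp2 was the 1 phosphatase called, higher in Hnrnpul1-/- cells, and none was called lower. Of all tested genes, 1.66% were called higher and 1.83% lower. The Dusp2 log2 ratio of Hnrnpul1-/- over wild-type cells was 1.02 (0.89 to 1.16), a 2.03-fold difference just past the size rule. Dusp1 followed at 0.90 (0.48 to 1.33), on 143 against 73 reads, and was not called. With the deposited FPKM the Dusp2 ratio was 0.99 and it was no longer called. In an additive genotype and LPS model, which takes departures from additivity as its spread, its genotype log2 ratio was 0.58 with an edgeR quasi-likelihood adjusted p of 0.30.

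The other ratios under LPS fell on both sides of no change. Dusp8 (0.53, 0.11 to 0.96), Dusp4 (0.38, 0.28 to 0.47) and Dusp16 (0.10, 0.01 to 0.19) had intervals above 0. Dusp5 (-0.53, -0.64 to -0.42) and Dusp6 (-0.48, -0.62 to -0.33) had intervals below 0, and Dusp7 (0.17) and Dusp14 (-0.60) had intervals that held 0. The phosphatases that act on ERK thus did not move together, since Dusp5 and Dusp6 lay below 0 and Dusp4 and Dusp2 above it.

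In untreated cells the genotypes lay closer. No phosphatase was called higher in Hnrnpul1-/- cells and 1, Dusp8, was called lower, beside 1.15% and 0.859% of all tested genes. The Dusp8 ratio was -1.20 (-2.31 to -0.17) and rested on 12 reads in Hnrnpul1-/- cells against 27 in wild-type cells. Dusp16 (0.28, 0.12 to 0.44) and Dusp6 (0.19, 0.03 to 0.36) had intervals above 0, Dusp14 (-0.50, -0.97 to -0.04) below 0, and Dusp1 (0.32), Dusp4 (0.13), Dusp5 (0.11), Dusp7 (0.06) and Dusp2 (-0.06) held 0. In the additive model the genotype log2 ratio of Dusp8 was 0.031, with an edgeR quasi-likelihood adjusted p of 0.99.

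**Figure D3:**
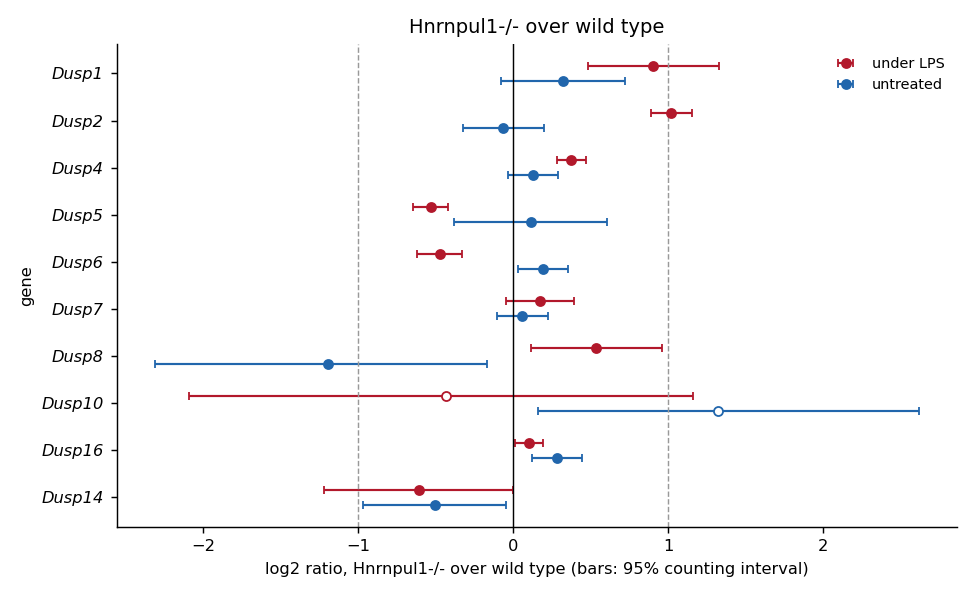
Log2 ratios of Hnrnpul1-/- over wild-type cells for each DUSP gene, red under LPS and blue untreated, with 95% counting intervals; dashed lines mark 2-fold and open symbols the untested Dusp10. Dusp2 under LPS (1.02) and Dusp8 untreated (-1.20) pass the size rule, and Dusp5 and Dusp6 lie below 0 under LPS.

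The interaction, the LPS log2 ratio in Hnrnpul1-/- cells minus that in wild-type cells, was called higher for Dusp2 and Dusp8 and lower for none, beside 1.19% and 1.84% of all tested genes. Dusp2 had 1.08 (0.80 to 1.37) and Dusp8 had 1.73 (0.67 to 2.80). Dusp1 (0.58, 0.02 to 1.14) and Dusp4 (0.25, 0.06 to 0.44) had intervals above 0, and Dusp5 (-0.65, -1.13 to -0.16) and Dusp6 (-0.67, -0.88 to -0.45) below 0. Dusp7 (0.11), Dusp16 (-0.18) and Dusp14 (-0.10) held 0. The interaction is the difference of the genotype ratios just given and adds no independent measurement. For Dusp8 it rests on the same 12 untreated reads.

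The 3 phosphatases with the TATTTAT element, Dusp2, Dusp1 and Dusp8, were also the 3 with the highest ratio of Hnrnpul1-/- over wild-type cells under LPS. The genes without it lay on both sides of 0, and of the 2 genes with 0 copies of ATTTA, Dusp7 had a ratio of 0.17 and Dusp14 of -0.60. The order was seen after the values were known, and no test was made of it. The Dusp8 interval under LPS (0.11 to 0.96) held the ratio of Dusp4 (0.38), which lacks the element. The place of Dusp8 above Dusp4 was thus not beyond counting error. Untreated, Dusp1 had the highest ratio of the tested phosphatases (0.32), Dusp2 lay at -0.06 and Dusp8 had the lowest (-1.20). As a description of all genes called higher with LPS in both genotypes, DUSP genes included, the median log2 ratio of Hnrnpul1-/- over wild-type cells under LPS was 0.09 for 324 genes with the element and 0.07 for 637 genes without it, and 6.48% and 5.81% of them were called higher.

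**Figure D4:**
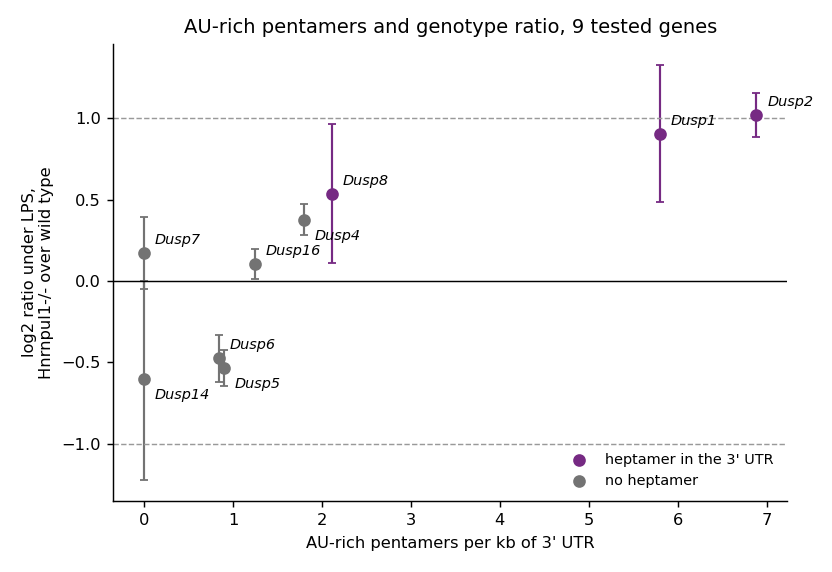
Copies of the AU-rich pentamer per kb of 3′ UTR against the log2 ratio of Hnrnpul1-/- over wild-type cells under LPS for the 9 tested DUSP genes, with 95% counting intervals; purple marks genes with at least 1 copy of the longer element. Dusp1 and Dusp2 lie at the upper right, and Dusp7 and Dusp14 have 0 copies.

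By the distance between their 4 centred log2 CPM values, the genes most like Dusp5 were Herc6 (0.19), Lilr4b (0.28) and Igtp (0.31). The search covered 9222 protein-coding genes with reads in every library whose CPM averaged 5 or more. Herc6 stood at 28.4 and 39.9 CPM in LPS-treated Hnrnpul1-/- and wild-type cells, against 1.55 and 1.21 CPM untreated. Those most like Dusp2 were Grap (0.20), Bco2 (0.23) and Rab20 (0.25). Grap, an adaptor protein of RAS signalling, stood at 182 and 89.7 CPM in LPS-treated Hnrnpul1-/- and wild-type cells, against 30.8 and 27.4 CPM untreated. For Dusp8 the nearest were Glrp1 (0.58), Dock4 (0.58) and Arhgef3 (0.69), which lay farther off. Distances over 4 libraries describe a shape only.

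Other genes of the MAP kinase pathway are given by list. Of 15 other dual-specificity phosphatases, 8 passed the filter. None of these was called higher with LPS, and 2 were called lower in Hnrnpul1-/- cells, Dusp22 (-1.12, -1.38 to -0.87) and Dusp28 (-1.16, -2.001 to -0.37). In wild-type cells Dusp22 (-0.87, -1.13 to -0.62) and Dusp28 (-0.81, -1.50 to -0.16) were also below 0 but short of the size rule. The interaction intervals of both held 0, and Dusp28 had 19 and 29 reads in LPS-treated Hnrnpul1-/- and wild-type cells. The median LPS log2 ratio of the 8 genes was -0.22 in Hnrnpul1-/- cells and -0.18 in wild-type cells. Dusp3, which acts on ERK and JNK, had 1956 and 1613 reads in LPS-treated Hnrnpul1-/- and wild-type cells, against 2943 and 2833 untreated, and was not called. Dusp9, the remaining cytoplasmic ERK phosphatase, had 3 reads in LPS-treated Hnrnpul1-/- cells and 0 in the other libraries. Of 8 phosphatases of other families that act on MAP kinases, such as Ptpn7 and Ppm1d, 6 passed the filter and 0 were called in any pair.

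None of the 9 tested MAP kinases was called in any pair, with LPS medians of -0.03 in Hnrnpul1-/- cells and 0.06 in wild-type cells. Of 6 tested MAP2 kinases, Map2k1, which phosphorylates ERK, was called higher with LPS in Hnrnpul1-/- cells (1.43, 1.37 to 1.49) and in wild-type cells (1.44, 1.38 to 1.504). Of 17 tested MAP3 kinases, Map3k8, the kinase that links TLR4 to ERK in macrophages, was called higher in both (1.42, 1.17 to 1.67, and 1.51, 1.25 to 1.78). Map3k6 was called lower in both (-3.29 and -2.55) on 4 reads in each LPS-treated library, and Map3k9 in Hnrnpul1-/- cells (-1.08, -1.51 to -0.67). In wild-type cells Map3k9 (-0.75, -1.12 to -0.39) was below 0 but short of the size rule, and its interaction interval held 0. None of these kinases was called between genotypes.

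Of 9 tested kinases activated by MAP kinases, Rps6ka5 was called lower with LPS in both genotypes (-1.997, -2.49 to -1.53, in Hnrnpul1-/- cells and -1.40, -1.83 to -0.98, in wild-type cells). Rps6ka2, an ERK-activated ribosomal S6 kinase, was called higher in Hnrnpul1-/- than in wild-type cells under LPS (1.73, 0.97 to 2.55) and untreated (1.63, 0.85 to 2.49). Its reads were 66 and 19 in LPS-treated Hnrnpul1-/- and wild-type cells, and 57 and 18 untreated.

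Among 7 tested feedback inhibitors of RAS and ERK outside the DUSP family, Spred3 (2.29, 1.70 to 2.92, and 2.16, 1.63 to 2.73) and the receptor inhibitor Errfi1 (1.39, 1.18 to 1.59, and 2.53, 2.31 to 2.75) were called higher with LPS in Hnrnpul1-/- and wild-type cells. Errfi1 stood at 38.2 and 64.3 CPM in LPS-treated Hnrnpul1-/- and wild-type cells, against 14.6 and 11.2 CPM untreated, and its interaction was called lower (-1.14, -1.44 to -0.85). Spry1, Spry2 and Spry3 had 0 reads in every library.

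ERK-responsive transcripts moved in both directions. Of 15 tested, 8 were called higher and 1 lower with LPS in Hnrnpul1-/- cells, and 6 and 1 in wild-type cells. The shares of all tested genes were 11.6% and 12.0%, and 11.2% and 10.1%. Medians were 1.004 over 15 genes in Hnrnpul1-/- cells and 0.74 over 14 in wild-type cells. Called higher in Hnrnpul1-/- cells alone were Egr1 and Fos. Fos had 1.004 (0.60 to 1.41) in Hnrnpul1-/- and 0.67 (0.38 to 0.97) in wild-type cells, and its interaction of 0.33 (-0.15 to 0.81) held 0. Myc (7.89, 6.53 to 9.77, and 7.03, 5.98 to 8.35), Phlda1 (4.76 and 4.71), Fosl1 (3.79 and 3.39) and Ier3 (3.69 and 3.59) had the highest ratios, and Egr3 was lower (-3.47 and -2.09). Egr1, with 0 reads in both wild-type libraries, had no LPS ratio in wild type and could not be called there. Between genotypes Egr1 was called higher and Egr3 lower in Hnrnpul1-/- cells under LPS. Egr3 had 12 and 39 reads in LPS-treated Hnrnpul1-/- and wild-type cells, and its interaction was called lower (-1.38, -2.36 to -0.40). Untreated, Egr1 and Etv4 (1.05, 0.22 to 1.92) were called higher and Fos lower (-1.10, -1.49 to -0.71). Etv4 had 40 and 19 reads in untreated Hnrnpul1-/- and wild-type cells. Egr1 had 1530 reads in LPS-treated and 443 in untreated Hnrnpul1-/- cells.

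**Figure D5:**
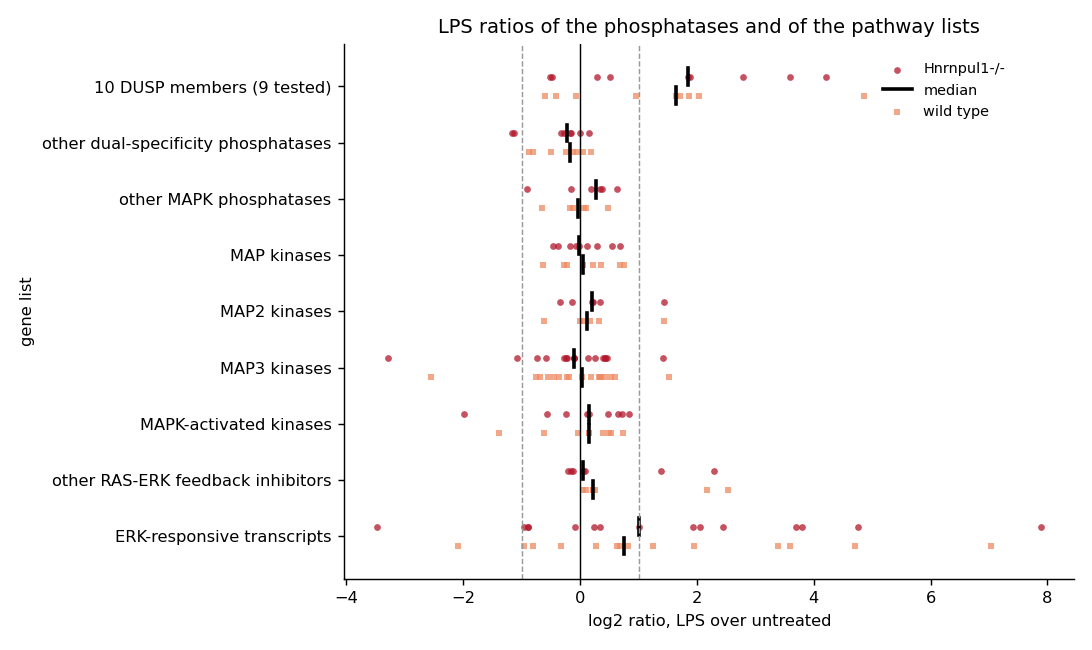
LPS log2 ratios of the tested DUSP members and of 8 pathway lists, red circles for Hnrnpul1-/- and orange squares for wild type, 1 point per gene; black ticks mark medians and dashed lines 2-fold. The phosphatases have medians of 1.85 and 1.64, and the medians of the kinase lists lie within 0.21 of 0.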

How the data were processed

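Polyadenylated RNA of 4 RAW 264.7 cultures was measured by RNA-seq, with 1 library per group. CASAVA 1.8 with HISAT2 2.0.5, featureCounts 1.5.0-p3, and as builds GRCm38 with mm10, are listed in the submitters' processing notes without their roles. The sources used here do not state strand use in counting, so the few reads of the genes that overlap Dusp8, Dusp10 and Dusp16 on the opposite strand (at most 4 per library) could not be told apart by strand. The deposited counts are whole reads per gene, not normalized. The FPKM values deposited by the authors equal the count per kb divided by a constant per library, which was 0.927 to 1.16 times the total count.

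TMM factors (edgeR 4.0.16, R 4.3.3) over the genes that averaged 1 CPM or more gave the CPM. Log2 ratios carry exact conditional 95% intervals (scipy 1.17.1), the interaction a delta-method interval. In ratios, 0 counts in a library were replaced by 3. Intervals cover counting error only, since each group holds 1 library. PCR copies of a molecule cannot be recognised without molecular identifiers, and the intervals do not allow for them. The calling code was tested on simulated counts with counting error alone, and the additive model on simulated counts with a fixed spread. Such simulations cannot show how the calls behave under the unknown spread between cultures. As alternatives, scaling by DESeq2 1.42.0 and by total counts was tried, with other filters and size rules, log2(FPKM + 1) and the additive model with 1 residual degree of freedom.

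The members and lists were chosen with earlier results of these data known. All 10 members are named. Each list and comparison gave at most 3 called genes with the largest ratios, and genes that a small count of calls needed were added. A gene chosen from 1 comparison may be given in others too. Genes at 0 reads and examples of lists without calls were chosen after their values were seen. For the member with the largest absolute ratio in each pair, the 3 genes nearest in pattern are named. Promoter windows are RefSeq's and the 3′ UTRs GENCODE's. The result of 1 marker list is not reported here.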

Additional observations from a re-analysis of the deposited data

Results flagged for a closer look

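The difference in LPS response between genotypes passed the size rule for Dusp2, with an interaction of 1.08, and for Dusp8, with 1.73. Both were judged by counting intervals without replicates. Dusp2 had the same level in both untreated libraries within counting error, while the Dusp8 value depends on 12 and 27 reads in untreated Hnrnpul1-/- and wild-type cells.

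The genotype ratio of Dusp8 changed side with LPS, at 0.53 under LPS and -1.20 untreated, each beyond counting error. The genotype ratio of Dusp6 also changed side, at -0.48 under LPS and 0.19 untreated. The difference between these ratios was not tested against replicates, since each group holds 1 library.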

How the results depend on the processing

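No paired analysis was possible because each group holds 1 library and the labels give no replicate numbers. The LPS calls of Dusp2, Dusp4, Dusp5 and Dusp16 held in both genotypes under every alternative, and those of Dusp8 wherever Dusp8 was tested. The count of 5 phosphatases called higher with LPS in each genotype stayed within 1.5-fold under each alternative. Without a filter, Dusp10 was tested, which gave 1 phosphatase lower with LPS in Hnrnpul1-/- cells (-1.43) and 1 higher untreated in them (1.32). With a 1.5-fold rule, 1 was lower with LPS in wild-type cells, 2 were higher in Hnrnpul1-/- cells under LPS, and 2 had a lower interaction.

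The genotype calls were the weakest. Requiring the whole interval beyond 2-fold left 0 higher under LPS, 0 lower untreated and 0 interactions. The deposited FPKM left 0, 0 and 1, and a mean of 10 CPM or more left 0 lower untreated and 1 interaction. Dusp8 was not tested under either, so its calls were not measured there. The additive model left 0 higher and 0 lower. In the additive model the genotype ratio of Dusp8 turned to 0.031, since that model fits 1 value over both treatments.

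Pathway genes called in at least 1 pair were also counted. Of other dual-specificity phosphatases, 2 were called, against 1 at a mean of 10 CPM and 0 with the whole interval, FPKM or the additive model. Other MAPK phosphatases had 0, against 1 with total counts and 2 with 1.5-fold, and MAP kinases had 0, against 3 with 1.5-fold. MAP2 kinases had 1, against 2 with 1.5-fold. MAP3 kinases had 3, against 6 with 1.5-fold and 1 at a mean of 10 CPM or FPKM. MAPK-activated kinases had 2, against 6 with 1.5-fold, 1 with the whole interval and 0 at a mean of 10 CPM or FPKM. Other feedback inhibitors had 2, against 1 at a mean of 10 CPM or FPKM. Depth limits Dusp8 and Dusp10 above all. The cause of these shifts was not tested beyond the genes and rules each setting uses.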
